A study of Sus scrofa with 8 samples.

Results

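The creatine kinase and phosphate shuttle genes of pig heart were examined as a group of 9 symbols, namely CKM, CKB, CKMT1, CKMT2, GATM, GAMT, SLC6A8, AK1 and AK4. Members were taken as the rows of the expression table that carry one of these symbols, and 7 of the 9 were found among its 18975 genes. CKMT1 and AK4 had no row under their symbols and were not analysed here.

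Heart RNA was sequenced from male Tibetan and Yorkshire pigs aged 6 months. TH and YH were Tibetan and Yorkshire pigs raised at 3000 m, and TL and YL were the same breeds raised at 100 m. Each of the 4 groups had 2 libraries, each a pool of the RNA of 4 pigs, and the spread between libraries is thus one between pools. The place of rearing differed together with the altitude, and the altitude and the place cannot be told apart. For YL the labels name a file of TL, and the libraries were taken as YL by title and breed.

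Creatine kinases move the high-energy phosphate of ATP to creatine and back. In a heart muscle cell the mitochondrial enzyme makes phosphocreatine beside the site where ATP is exported, and the cytosolic enzymes use it to remake ATP where ATP is spent, at the myofibrils and ion pumps. Creatine is made mainly outside the heart and taken up from blood, while adenylate kinases recover ATP from ADP and produce the AMP that signals a falling energy charge.

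Reads on genes ranged from 15687000 to 26723000 per library, with a median of 19648000. YL2 stood apart from the other libraries. Its Pearson correlations with them over log2 values ranged from 0.839 to 0.870, against 0.900 to 0.972 among the other 7. The 9 kidney markers found summed to 4464 FPKM in YL2 and to between 0.302 and 17.1 FPKM in the others, and the defining marker UMOD was at 947 FPKM in YL2 and at 0 in 6 of the other 7. The 9 cardiomyocyte markers found summed to 16592 FPKM in YL2 and to between 26170 and 44283 FPKM elsewhere, so that all libraries held heart muscle RNA. In bulk tissue, fewer cells of a type and less RNA per cell cannot be told apart. Fold changes and p-value counts that involve YL are therefore given with and without YL2, and GATM and GAMT were tested without it. TH1 was unusual as well, with the highest FPKM sum (8.56e+06, against 1.56e+06 in YL2 to 4.02e+06 in YL1). It also had the largest mitochondrially encoded share of FPKM (87.6%) and the fewest genes at 1 FPKM or more (10233). TH1 was kept in the main fits.

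CKM encodes the muscle creatine kinase, which sits partly at the M-band of the myofibril (ENSSSCG00000025268, scaffold GL896419.1:12572-20830 of Sscrofa10.2). CKM stood at 1299.9 and 917 FPKM in TH, 2355 and 2087 FPKM in YH, 2698 and 2678 FPKM in TL, and 2745 and 1226 FPKM in YL, where FPKM is fragments per kilobase of transcript, scaled to the mapped fragments of the library. Both TH libraries lay below all libraries of TL and YH and below YL1, while YL2 lay between the libraries of TH. From 33407 to 135754 reads per library stood behind these values. Group means ran from 1108 ± 271 FPKM in TH through 1986 ± 1074 in YL and 2221 ± 189 in YH to 2688 ± 14.0 in TL (SD, n = 2 libraries each). The intervals of mean ± SD of YL overlapped those of TH, YH and TL, so that YL could not be placed in this order beyond its spread.

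The question of whether breed or altitude goes with CKM was addressed by limma fitted to all 11913 tested genes. Fold changes are on the log2(FPKM + 1) scale, and a gene was called at a Benjamini-Hochberg adjusted p under 0.01 with a log2 fold change over 1 in size. CKM was lower in TH than in TL by a log2 fold change of -1.30 (SE 0.45, 95% interval -2.37 to -0.23), which did not pass the adjusted threshold of limma (unadjusted p = 0.0239, adjusted p = 0.350). The TH to YH difference was -1.02 (SE 0.45, 95% interval -2.09 to 0.05), with a limma adjusted p of 0.325. In neither comparison did the libraries overlap. The altitude difference of the Tibetan pigs minus that of the Yorkshire pigs was -1.57 (SE 0.64, 95% interval -3.08 to -0.06, limma adjusted p = 0.444). Without YL2 this interaction was -0.99 (SE 0.46, limma adjusted p = 0.422). YL2 does not enter the TH to TL and TH to YH differences, but it enters the shared spread, and in the fit without it their unadjusted p were 0.00408 and 0.0124 and their limma adjusted p 0.117 and 0.124. Scaling all libraries to equal FPKM sums gave -1.94 for TH to TL and -2.01 for TH to YH, while the median of all tested genes was -0.44 and -0.74 on that scale. The TL to YL and YH to YL differences of CKM were 0.55 and 0.27 with YL2, and -0.03 and -0.31 without it. Averaged over the breeds, the altitude difference was -0.51 with YL2 (limma adjusted p = 0.803) and -0.80 without it (unadjusted p = 0.0127, limma adjusted p = 0.371).

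Some marker genes of other cell types moved with the low CKM of TH. The 6 atrial markers found (NPPA, MYL7, MYL4, SLN, NR2F2 and TBX5) summed to 6625 and 5391 FPKM in TH and to between 408 and 2622 FPKM in the other 6 libraries. The defining atrial marker NPPA stood at 2263 and 2146 FPKM in TH and at 23.1 to 108 FPKM elsewhere. NPPA and MYL7 made up nearly all of the atrial sum. SLN stood at 56.5 and 16.3 FPKM in TH and at 0.812 to 3.52 FPKM elsewhere, while TBX5 (9.14 and 8.39 FPKM) and MYL4 (7.59 and 6.73 FPKM) were lower in TH than in TL (15.3 and 17.1, and 8.85 and 21.4 FPKM). The 6 smooth muscle markers found summed to 9494 and 6096 FPKM in TH and to between 1028 and 3637 FPKM elsewhere, of which DES, also made by heart muscle cells, contributed 9125 and 5761 FPKM in TH. Of the same list, CNN1 (132 and 89.5 FPKM in TH, at most 61.7 elsewhere) and TAGLN (146 and 131 FPKM in TH, at most 98.4 elsewhere) were also higher in TH, and MYH11 and SMTN were lower in TH than in TL. The 3 ventricular markers found summed to 7474 and 5363 FPKM in TH, within the range of 3298 to 9307 FPKM of the other libraries, and the cardiomyocyte sums of TH, 44283 and 26170 FPKM, spanned those of TL and YH. These sums rest on the abundant troponins, and 5 of the 9 markers (PLN, ACTC1, MYL3, MYBPC3 and MYH6) were lower in TH than in TL without overlap, beside 48.5% of all tested genes apart in either direction. Against YH, PLN, MYBPC3 and MYH6 were lower in TH without overlap and ACTC1 higher, beside 52.5% of all tested genes apart in either direction. PLN, which encodes phospholamban, stood at 1121 and 1006 FPKM in TH, 1427 to 2195 in YH, TL and YL1, and 822 in YL2. The 5 skeletal muscle markers found summed to 3.31 and 3.48 FPKM in TH, nearly all of it TNNC2, and to at most 0.950 FPKM elsewhere, with MYH1 and MYH2 at or near 0 in all libraries. The 4 blood markers found summed to 3089 and 1625 FPKM in TH and to between 528 and 1399.9 FPKM elsewhere. The part of these markers in the level of CKM was not tested.

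**Figure D1:**
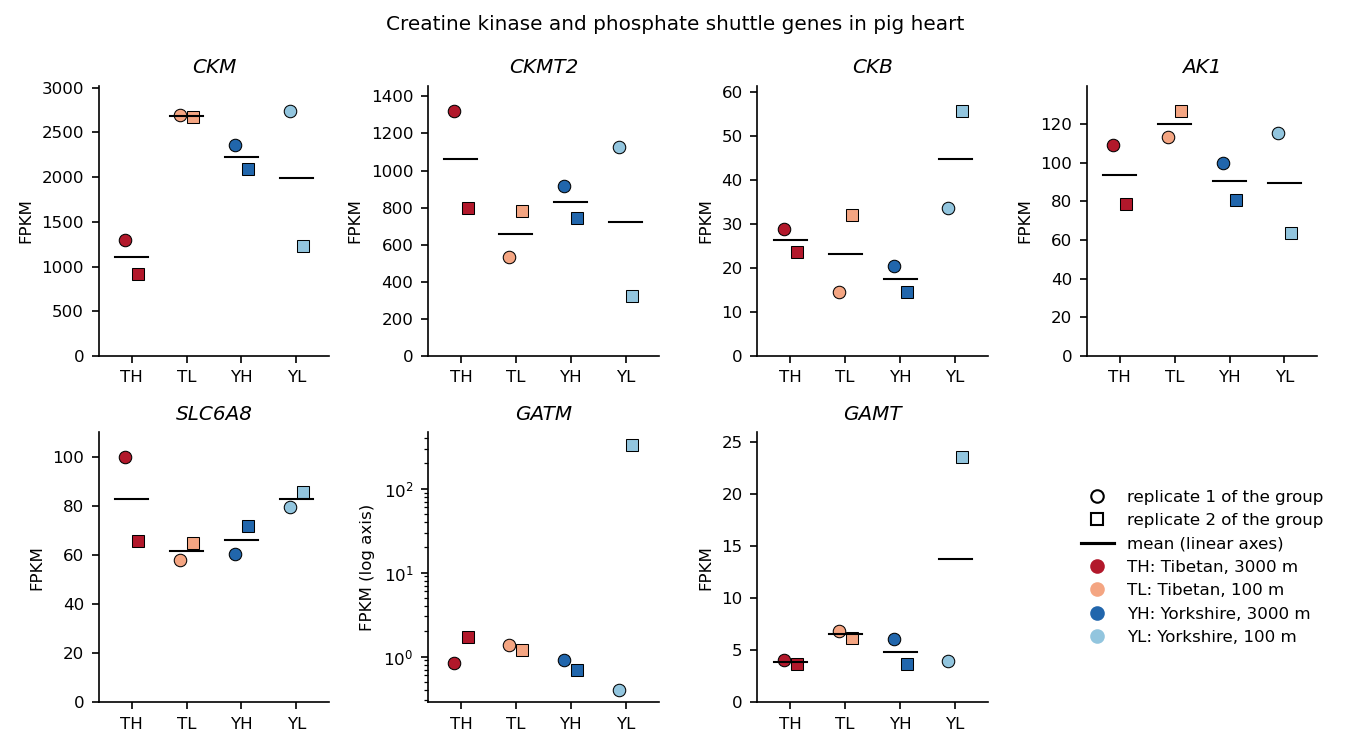
FPKM of the 7 genes in each of the 8 libraries, by group (TH, TL, YH, YL), with circles for replicate 1, squares for replicate 2 and a line for the mean of both. All axes are linear from 0 except that of GATM, which is logarithmic and has no mean line. The TH libraries of CKM (917 and 1299.9 FPKM) lie below those of TL and YH, and YL2 stands alone for GATM (334 FPKM) and GAMT (23.6 FPKM).

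CKMT2 encodes the sarcomeric mitochondrial creatine kinase, the form of heart and skeletal muscle (ENSSSCG00000014128, 2:91754199-91770538). CKMT2 stood at 1324 and 797 FPKM in TH, 918 and 743 in YH, 532 and 782 in TL, and 1126 and 322 in YL. TH lay above TL, by little between TH2 and TL2 (797 against 782 FPKM), and every other pair of groups overlapped. The TH to TL difference was 0.67 (SE 0.61, 95% interval -0.77 to 2.11, limma adjusted p = 0.728), and it was 0.03 when all libraries were scaled to equal FPKM sums, where the median of all tested genes was -0.44. It was 0.31 without TH1, 0.39 without TL1 and 1.04 without TH2. The sum of the 10 mitochondrially encoded genes found was higher in the library with more CKMT2 within TH, YH and YL, but not within TL. It was 766302 and 390764 FPKM in TH, 445712 and 245584 in YH, 385264 and 376271 in TL, and 623016 and 204203 in YL. The part of these genes in the level of CKMT2 was not tested. The other 6 contrasts of CKMT2 lay between 0.10 and 0.56 on the log2 scale with YL2. Without YL2 the TL to YL difference turned from 0.10 to -0.80, YH to YL from 0.46 to -0.45 and breed from 0.21 to -0.24, altitude was 0.11 instead of 0.56, and the interaction was 1.12 instead of 0.22 (limma adjusted p from 0.380 to 0.962 over all contrasts). From 15555 to 38726 reads stood behind each value. Group means were 657 ± 177 FPKM in TL, 724 ± 568 in YL, 830 ± 124 in YH and 1060 ± 373 in TH (SD, n = 2), and no neighbours in this order differed beyond their spread.

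The TH to TL differences of CKM and CKMT2 thus had opposite signs, with neither called, and their ratio within a library does not depend on how libraries are scaled to each other. The ratio of CKM to CKMT2 FPKM was 0.982 in TH1 and 1.15 in TH2. It was 2.57 and 2.81 in YH, 5.07 and 3.43 in TL, and 2.44 and 3.81 in YL. Both TH libraries lay below the other 6, including YL2, in which both genes were low together. This ratio was formed after the values were seen and is a description without a test.

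CKB encodes the brain-type creatine kinase, the minor cytosolic form of adult heart (ENSSSCG00000021220, scaffold GL895295.1:123-2080). CKB stood at 29.0 and 23.6 FPKM in TH, 20.4 and 14.6 in YH, 14.6 and 31.9 in TL, and 33.6 and 55.8 in YL. YL was the highest group in both libraries, above each of the other 6. Its reads numbered from 270 to 1433 per library, the fewest of the 3 creatine kinases. The YH to YL difference was -1.28 (SE 0.42, 95% interval -2.27 to -0.28), with an unadjusted p of 0.0193 and an adjusted p of 0.764 in limma. The TL to YL difference was -0.97 (SE 0.42, 95% interval -1.96 to 0.03, limma adjusted p = 0.569), and the TH to YH difference was 0.57 (SE 0.42, 95% interval -0.43 to 1.57, limma adjusted p = 0.526) but -0.36 with libraries scaled to equal FPKM sums, where the median of all tested genes was -0.74. The TL to YL value depended on TL, whose libraries were 14.6 and 31.9 FPKM, and was -0.43 without TL1 and -1.51 without TL2. With 1 library left out, the TH to YH value ranged from 0.34 (without YH2) to 0.80 (without YH1). The interaction of CKB was 1.54 (SE 0.59, 95% interval 0.13 to 2.95, limma adjusted p = 0.427), and it was 1.18 without YL2 (limma adjusted p = 0.451) and 0.999 without TL1. Without YL2 the YH to YL difference was -0.92 (95% interval -2.05 to 0.21) and the TL to YL difference -0.61. Group means were 17.5 ± 4.13 FPKM in YH, 23.2 ± 12.3 in TL, 26.3 ± 3.77 in TH and 44.7 ± 15.7 in YL (SD, n = 2). No neighbours in this order differed beyond their spread, and the mean ± SD of YH lay below those of TH and YL.

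Summed over the 3 creatine kinases, FPKM ranged from 1604 in YL2 to 3904 in YL1, and TH1 and TH2 stood at 2653 and 1737. CKM made up 49.0% and 52.8% of the sum in TH and from 70.3% to 83.2% in the other 6 libraries. CKMT2 made up 49.9% and 45.9% in TH and from 16.4% to 28.8% elsewhere. CKB stayed between 0.450% and 1.36% in all libraries except YL2, where it was 3.48%. In TH the mitochondrial and the muscle form were thus present at about equal FPKM, while the muscle form prevailed elsewhere.

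**Figure D2:**
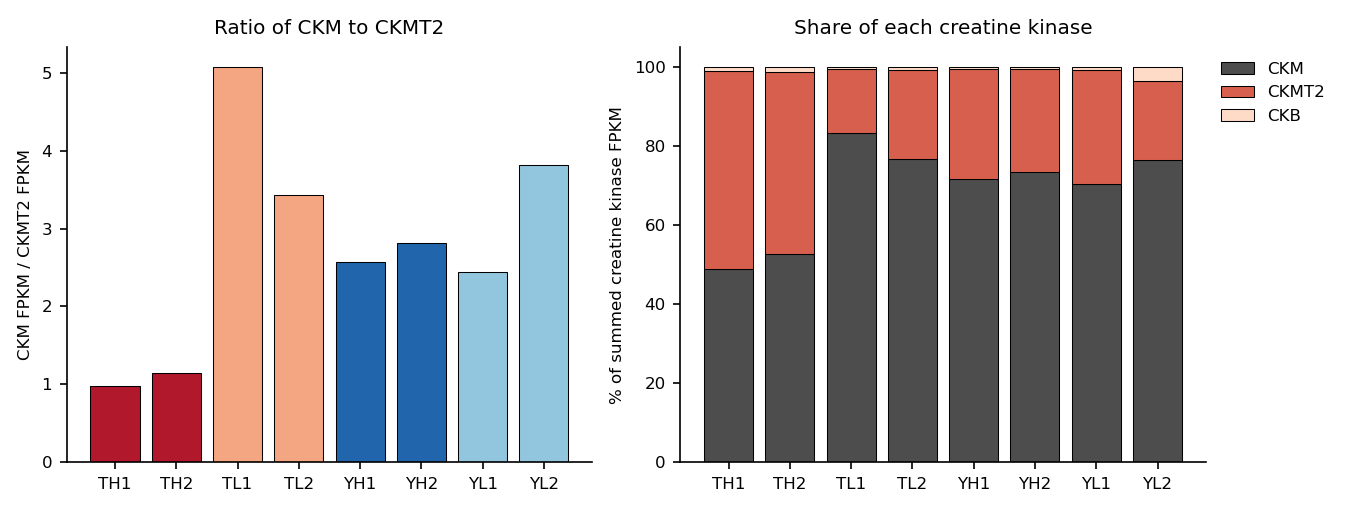
Left, ratio of CKM to CKMT2 FPKM in each library (bars from 0), coloured by group. Right, share in percent of CKM, CKMT2 and CKB in their summed FPKM. The bars of TH1 (0.982) and TH2 (1.15) are the lowest of the 8, and the CKMT2 share is highest in the same libraries.

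The enzymes of creatine synthesis were low in heart. GATM encodes the first, glycine amidinotransferase, an enzyme made mainly in kidney (ENSSSCG00000004672, 1:140842955-140861814). GATM stood at 0.841 and 1.73 FPKM in TH, 0.902 and 0.696 in YH, 1.37 and 1.19 in TL, and 0.397 in YL1, from 22 to 103 reads per library. In YL2 it stood at 334 FPKM from 33798 reads, 193-fold above the highest other library. Without YL2 the TL to YL difference was 0.71 (SE 0.30, 95% interval -0.02 to 1.43, limma adjusted p = 0.524), in a fit in which YL1 was alone in its group and was assumed to vary like the other groups. At these low levels the pseudocount of 1 sets the size, and the same difference was 1.47 with a pseudocount of 0.1. The breed difference averaged over altitudes was 0.51 (SE 0.19, unadjusted p = 0.0369 and adjusted p = 0.262 in limma). The libraries of Tibetan and Yorkshire pigs overlapped in this gene.

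GAMT encodes guanidinoacetate methyltransferase, which completes creatine (ENSSSCG00000023142, 2:77968840-77972112). GAMT stood at 4.07 and 3.67 FPKM in TH, 6.07 and 3.71 in YH, 6.90 and 6.19 in TL, and 3.96 in YL1, from 80 to 184 reads. In YL2 it stood at 23.6 FPKM from 827 reads, 3.42-fold above the highest other library. TL was above TH in both libraries, and above YH and YL1 as well. The TH to TL difference was -0.63 (SE 0.24, 95% interval -1.21 to -0.05, unadjusted p = 0.0375 and adjusted p = 0.255 in limma). The TL to YL1 difference was 0.60 (SE 0.29, 95% interval -0.11 to 1.31, limma adjusted p = 0.599). The kidney marker sums given above moved with GATM and GAMT in YL2, and their part in these values was not tested.

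SLC6A8 encodes the creatine transporter, which brings creatine from blood into the cell (ENSSSCG00000012771, X:142008588-142017917). SLC6A8 stood at 100.04 and 66.0 FPKM in TH, 60.5 and 72.1 in YH, 58.2 and 65.1 in TL, and 79.8 and 85.9 in YL, from 3454 to 7435 reads. The levels lay within a narrow range, in which YL was above TL and YH in both libraries and TH1 was the highest of all. The contrasts of SLC6A8 between pairs of groups lay between -0.42 and 0.39, and its interaction was 0.72 (SE 0.37, 95% interval -0.17 to 1.60, limma adjusted p = 0.524). Without YL2 the TL to YL, YH to YL and interaction values were -0.37, -0.27 and 0.66. Group means were 61.7 ± 4.88 FPKM in TL, 66.3 ± 8.20 in YH, 82.8 ± 4.35 in YL and 83.0 ± 24.1 in TH (SD, n = 2), of which only the neighbours YH and YL were apart by more than their SD.

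AK1 encodes the main cytosolic adenylate kinase of muscle (ENSSSCG00000005627, 1:302277901-302287920). AK1 stood at 109 and 78.5 FPKM in TH, 99.9 and 80.9 in YH, 113 and 127 in TL, and 116 and 63.6 in YL, from 2078 to 4606 reads. TL was above TH and above YH in both libraries. All 7 contrasts of AK1 lay between -0.44 and 0.48 on the log2 scale, with limma adjusted p from 0.659 to 0.971. Without YL2 the TL to YL difference was 0.05 instead of 0.48, YH to YL was -0.36 instead of 0.07, the interaction was -0.01 instead of -0.44 and altitude was -0.36 instead of -0.15 (limma adjusted p from 0.475 to 0.993 over all contrasts). The ratio of AK1 to CKM FPKM was 0.0842 and 0.0857 in TH and between 0.0387 and 0.0519 in the other libraries, so that CKM was lower in TH relative to AK1 as well as to CKMT2.

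Over the members, limma called 0 of 7 genes in each of the 7 contrasts. With all 8 libraries, the share of all tested genes called was 0.0336% for TH to YH, 0.0504% for TH to TL, 0.00839% for TL to YL, 0% for YH to YL, 0.0504% for breed, 0.0336% for altitude and 0.0336% for the interaction. Without YL2 the shares were 0.0512%, 0.111%, 0.0256%, 0%, 0.0854%, 0.0598% and 0.0598% of 11709 genes, in the same order. Calls were thus rare among all genes as well as absent among the members.

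At an unadjusted limma p under 0.05, 0 of the 5 members fitted with all libraries passed in TH to YH, where 16.2% of all tested genes did, and 0 in TL to YL (8.94% of all). CKM passed in TH to TL (1 of 5, 11.3% of all), CKB in YH to YL (1 of 5, 5.97% of all), and CKM and CKB in the interaction (2 of 5, 10.9% of all). For the averaged contrasts 0 of 5 passed, beside 13.5% of all genes for breed and 7.22% for altitude. These counts depended on YL2. With all 7 members fitted without it, CKM passed in TH to YH (1 of 7, 22.9% of all genes), CKM and GAMT in TH to TL (2 of 7, 17.3%), GATM in breed (1 of 7, 16.8%) and CKM in altitude (1 of 7, 9.39%). None passed in TL to YL (0 of 7, 9.74%), YH to YL (0 of 7, 5.41%) or the interaction (0 of 7, 12.9%).

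Groups did not overlap in 2 of 7 members for TH to YH, against 52.5% of all tested genes, and in 5 of 7 for TH to TL, against 48.5%. In TL to YL it was 2 of 5 members (41.5% of all) and in YH to YL 2 of 5 (36.3% of all), leaving out GATM and GAMT. The share of members was below that of all genes in TH to YH and above it in TH to TL. With all 7 members fitted without YL2, their median log2 fold changes were 0.30, -0.02, -0.03 and -0.31 in TH to YH, TH to TL, TL to YL and YH to YL, beside -0.03, -0.02, 0.05 and 0.06 over all tested genes.

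Exact two-sided permutation tests of the mean log2 level were run for breed and for altitude in each member, 14 tests in all. The exact p ranged from 0.0857, for GATM by breed, to 0.914, before any adjustment, and the smallest p that 4 libraries against 4, or 4 against 3, can give is 0.0286. For CKM the exact p was 0.200 for altitude and 0.686 for breed. With 2 libraries against 2 an exact test cannot go below 0.333.

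**Figure D3:**
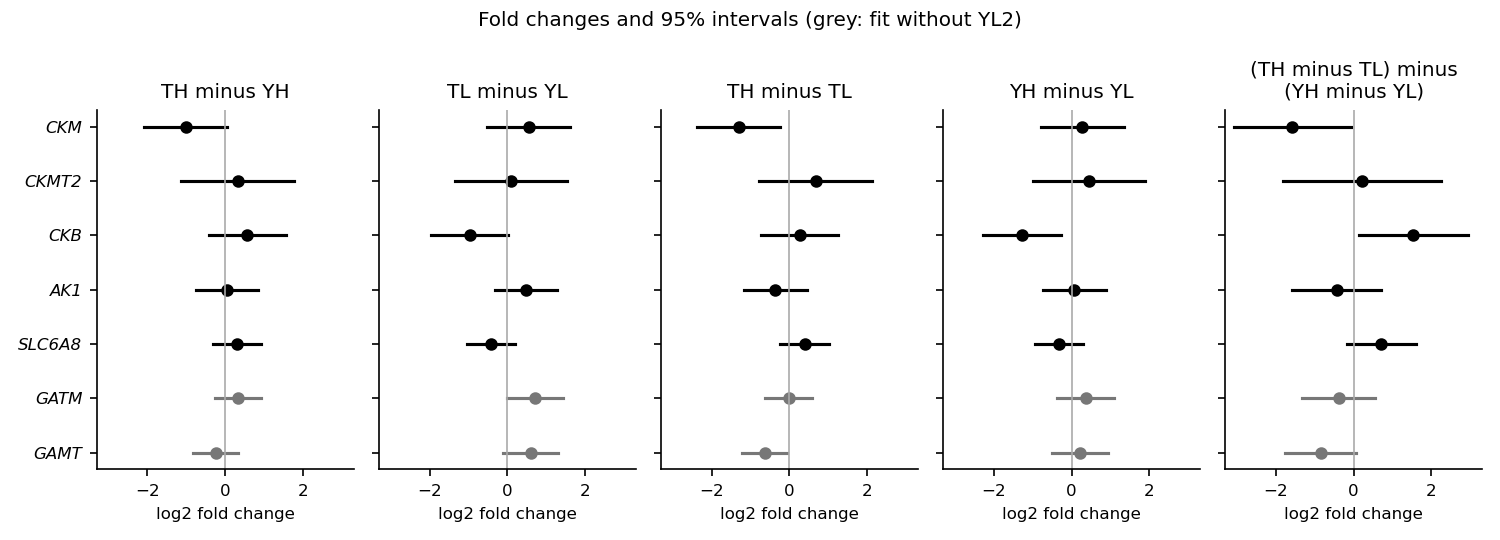
Log2 fold changes (points) with 95% intervals (lines) of the 7 genes in 4 comparisons of groups and in the interaction, from limma on log2(FPKM + 1). Grey marks GATM and GAMT, fitted without YL2. Before adjustment for the number of genes, 5 of the intervals drawn exclude 0, those of CKM (-2.37 to -0.23) and GAMT (-1.21 to -0.05) in TH minus TL, of CKB in YH minus YL (-2.27 to -0.28), and of CKM (-3.08 to -0.06) and CKB (0.13 to 2.95) in the interaction. Without YL2 the last 3 include 0, as for CKB in YH minus YL (-2.05 to 0.21). The interval of CKM in TH minus YH, drawn from -2.09 to 0.05, went the other way and ran from -1.73 to -0.31 without YL2.

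The genes around the shuttle were described by 8 lists of 59 symbols, of which 50 were found in 56 rows and 46 rows were tested. None was called by limma in any of the 7 contrasts (0 of 46), while 8 (17.4%) had an unadjusted p under 0.05 in TH to YH, 7 (15.2%) each in TL to YL and TH to TL, 5 (10.9%) in YH to YL, 9 (19.6%) in breed, 2 (4.35%) in altitude and 11 (23.9%) in the interaction, beside 16.2%, 8.94%, 11.3%, 5.97%, 13.5%, 7.22% and 10.9% of all tested genes. Without YL2 it was 18 of 45 in TH to YH, 7 in TL to YL, 10 in TH to TL, 6 in YH to YL, 12 in breed, 6 in altitude and 13 in the interaction, beside 22.9%, 9.74%, 17.3%, 5.41%, 16.8%, 9.39% and 12.9% of all. Listed genes are named by their mean FPKM, up to 4 per list.

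The list of M-band and ATP-using partners of CKM held 5 tested genes, of which 4 were lower in TH than in TL and in YH without overlap. Of all tested genes, 48.5% were apart in either direction in TH to TL and 52.5% in TH to YH. The median log2 fold change of the list was -1.35 for TH to TL and -1.14 for TH to YH, beside -0.02 and -0.03 over all tested genes. MYOM2, which encodes an M-band protein that binds CKM, stood at 136 and 166 FPKM in TH, between 299 and 396 in TL, YH and YL1, and at 129 in YL2. Its TH to TL difference was -1.35 (SE 0.43, limma adjusted p = 0.322). MYOM1, the myomesin of all striated muscle, stood at 123.3 and 95.3 FPKM in TH, between 179 and 218 in TL, YH and YL1, and at 82.1 in YL2. MYOM3, the third myomesin, chosen after its values were seen, stood at 13.8 and 21.4 FPKM in TH, between 22.2 and 57.8 in TL, YH and YL1, and at 12.1 in YL2. As with CKM, the libraries low in all 3 myomesins were TH1, TH2 and YL2.

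MYH6, the alpha heavy chain of cardiac myosin, stood at 20.6 and 18.4 FPKM in TH, at 75.1 to 246 in TL, YH and YL1, and at 2.60 in YL2. Its TH to YH difference was -3.16 (SE 1.32, limma adjusted p = 0.307) with all libraries, and without YL2 its limma adjusted p was 0.0410.

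**Figure D4:**
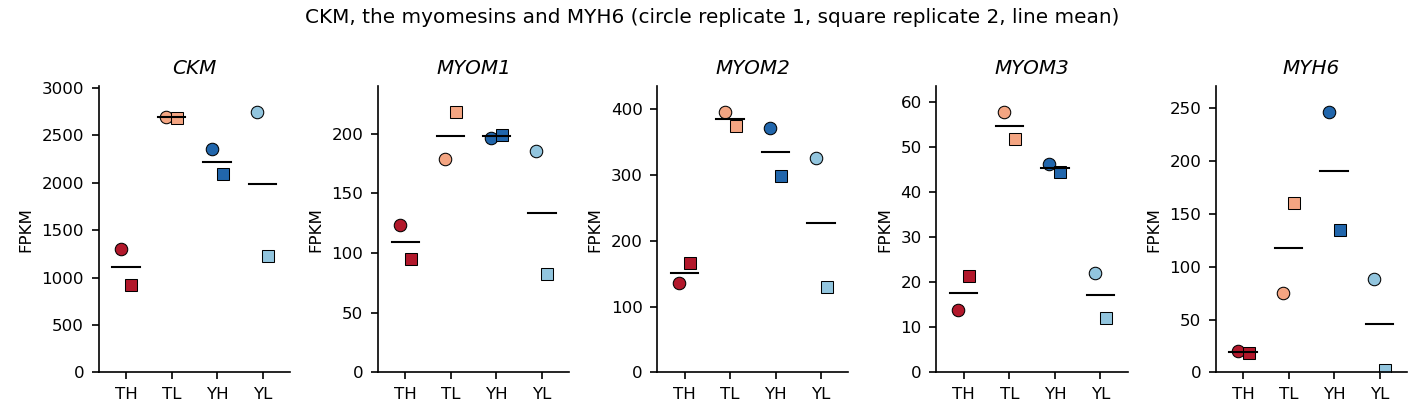
FPKM of CKM beside MYOM1, MYOM2, MYOM3 and MYH6 in the 8 libraries, by group, on linear axes from 0 (circle replicate 1, square replicate 2, line mean). In CKM, the 3 myomesins and MYH6 the TH libraries lie below those of TL and YH, as for MYOM2 (136 and 166 against 299 to 396 FPKM).

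Of the other adenylate kinases, AK3 of the mitochondrial matrix stood at 11.6 and 12.9 FPKM in TH and at 13.5 to 24.9 elsewhere, with both TH libraries below all others. Among the nucleoside diphosphate kinases, which pass phosphate from ATP to other nucleotides, NME1 stood at 84.1 and 40.5 FPKM in TH and at 11.05 to 20.2 elsewhere. Its TH to TL and TH to YH differences were 2.26 and 1.90, with limma adjusted p of 0.173 and 0.118. NME2, the most abundant of the list, stood at 629.7 and 339 FPKM in TH and at 266 to 339.6 elsewhere. NME1 and NME2 are alike in sequence, and reads may be split between them.

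Among the genes of AMP breakdown and adenine nucleotide salvage, ADSSL1, the muscle adenylosuccinate synthase, stood at 20.7 and 24.05 FPKM in TH, at 30.8 to 50.7 in TL, YH and YL1, and at 20.2 in YL2. ADSL, the adenylosuccinate lyase, was higher in TH (35.1 and 23.4 FPKM) than in all other libraries (18.3 to 21.6), as was the nucleotidase NT5C2 (28.5 and 26.4 against 14.2 to 21.4 FPKM). NT5C1A, a cytosolic 5'-nucleotidase that forms adenosine from AMP, was singled out after its values were seen. NT5C1A stood at 1.37 and 3.96 FPKM in TH, 23.1 and 17.3 in YH, 19.7 and 17.9 in TL, and 5.97 and 4.66 in YL. Its TH to YH difference was -2.61 (SE 0.37, limma adjusted p = 0.0592) and its TH to TL difference -2.53 (SE 0.37, limma adjusted p = 0.0916), the lowest adjusted p of the 46 tested genes in these comparisons. SLC25A4, the ATP and ADP exchanger of heart mitochondria, which hands ATP to CKMT2, stood between 1661 and 3033 FPKM outside YL2 and at 1079 in YL2, with TH2 the lowest of the libraries outside YL2. Of the AMP-activated kinase subunits, 0 of 8 rows passed an unadjusted p under 0.05 in TH to YH (16.2% of all genes) or TH to TL (11.3% of all).

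Genes that supply arginine to creatine synthesis stood out in YL2 with GATM. ASS1, which makes argininosuccinate, stood at 648 FPKM in YL2 and at 3.84 to 8.78 elsewhere, and ASL, which makes arginine, at 58.7 in YL2 and 7.44 to 13.4 elsewhere. SLC16A12, a creatine exporter, stood at 51.0 FPKM in YL2 and at 0.670 to 1.01 elsewhere. The kidney markers moved with these values too.

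The genes most like each member were those with the highest Pearson correlation of log2(FPKM + 1) over the 8 libraries, among 3884 named genes with a mean of at least 10 FPKM. For CKM they included EMC2 (0.987) and IVNS1ABP (0.973). For CKMT2 they were ISCA1 (0.966), C1ORF21 (0.964) and MT-ND1 (0.959), the last encoded by mitochondrial DNA. AK1 was most like APOO (0.977), TMEM38A (0.971) and NDUFA12 (0.968), SLC6A8 most like BAT4 (0.949), NAPA (0.939) and PCGF2 (0.937), and CKB most like AGPAT1 (0.894), MTCH1 (0.889) and SHISA5 (0.886). All these points share library, depth and the content of YL2, and the correlations are descriptions. Between CKM and CKMT2 the correlation over the 7 libraries without YL2 was -0.27.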

How the data were processed

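Per their methods and processing notes, the authors aligned reads to Sscrofa10.2 with TopHat2 2.0.9 and Bowtie 0.12.5, computed FPKM with Cufflinks and called genes with DESeq 1.10.1. The paper lists CKM among the differentially expressed genes that it also measured by RT-qPCR. It describes the RT-qPCR results as concordant with its RNA-seq data, and they were not compared here. The authors deposited a table of FPKM and, as a second unit, a signal of reads per gene scaled by library. Dividing this signal by its smallest step gave whole reads within 0.1 for 99.75% to 99.90% of low values, and these reads were used for depth only. Another 8 columns, group means and ratios, and 4 group files that repeat part of the table were not used.

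Genes with at least 1 FPKM in 2 libraries were fitted as log2(FPKM + 1) with limma 3.58.1 in R 4.3.3, with variance moderation following the mean, 1 term per group and Benjamini-Hochberg adjustment over all genes tested. GATM and GAMT were fitted without YL2. Every member is named. Some genes of the lists are not reported here. Its fold change is given in full where libraries did not overlap between groups and the log2 change was at least 0.5. The members and lists were chosen with earlier results of these data known. The table itself gave 14256 symbols, and 1025 more came from a list of gene names. The fit was tested on simulated data. Values of the 2 libraries of each group differed beyond sampling noise. Python 3.11.15 was used for tables, exact tests and figures.

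Alternatives were a pseudocount of 0.1, other filters, scalings and thresholds, no trend, a replicate block, only the 4 libraries compared, and each library left out. A fit of log2 scaled reads was chosen after seeing the data.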

Additional observations from a re-analysis of the deposited data

Results flagged for a closer look

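The breed difference of CKB at 3000 m minus that at 100 m was 1.54 on the log2 scale, with every TH library above YH and every TL library below YL. The interaction term of limma gave an unadjusted p of 0.0365 and an adjusted p of 0.427, so that a difference between altitudes was not called. Without YL2 it was 1.18, with an unadjusted limma p of 0.0952.

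The libraries of SLC6A8 were all higher in TH than in TL and all lower in YH than in YL. The difference of these changes was 0.72, with an unadjusted p of 0.0963 and an adjusted p of 0.524 in limma, and TH2 (66.0 FPKM) was barely above TL2 (65.1 FPKM).

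YL2 was left out of the tests of GATM and GAMT, and held 334 FPKM of GATM and 23.6 FPKM of GAMT. The highest values of the other 7 libraries were 1.73 and 6.90 FPKM. The kidney markers, at 4464 FPKM in sum, were high in this library too, and their part was not tested.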

How the results depend on the processing

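The number of members called was 0 in each of the 7 contrasts under every alternative run, including the replicate block. Looser thresholds (an adjusted p under 0.05, or 0.01 without adjustment, with the same fold) also gave 0, but were applied to the main fits only. Among the other fits with all 8 libraries, CKM met the looser unadjusted limit of limma under some scalings. These were TH to TL with median-ratio scaling (log2 fold change -1.41) or equal FPKM sums (-1.94), and TH to YH with equal FPKM sums (-2.01). With the replicate block, limma called 0 of 7 members and, over all genes, 3, 4, 1, 0, 5, 4 and 4 in TH to YH, TH to TL, TL to YL, YH to YL, breed, altitude and interaction, against 4, 6, 1, 0, 6, 4 and 4 without it. Libraries sharing a number correlated in their deviations by -0.08 to 0.12, and the numbers were not taken to pair them. Of 198 alternative values of the fold changes named, 102 were identical to the reported value, as for changes of threshold or of libraries outside the comparison, 93 differed but kept direction and side of the threshold, and 3 reversed. Scaling to equal FPKM sums turned CKB in TH to YH to -0.36, and this scaling moved the median of all tested genes to -0.74 in that comparison. Including YL2 turned the TL to YL differences of GATM and GAMT to -3.25 and -0.55. With 1 library left out, CKM ranged from -1.55 to -1.05 in TH to TL and from -1.27 to -0.77 in TH to YH, and CKB from -1.63 to -0.92 in YH to YL. Planned tests by edgeR and DESeq2 were not run, since the deposited reads are scaled and not whole for every gene. With 2 pools per group, the 95% intervals between groups were wider than 1 on the log2 scale for every member, and GATM outside YL2 rests on 22 to 103 reads.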

Other observations

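A row named AK3L1, an older name of AK4 in RefSeq (ENSSSCG00000003808, 6:135587478-135663171 of Sscrofa10.2), was looked up after the values were seen and was not counted as a member. AK3L1 stood at 13.9 FPKM in YL2 and at 0.191 to 1.27 FPKM in the other 7 libraries.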
